A study of Mus musculus with 24 samples.

Results

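The contrast examined here asks whether an enriched environment went with a different gene expression response in socially isolated mice than in GH mice. It is the enrichment effect in isolated mice (SI_EE minus SI_Con) minus the enrichment effect in GH mice (GH_EE minus GH_Con), on the log2 scale, and is called the interaction below. A positive value means that the enrichment effect was more upward, or less downward, in isolated mice. The contrast uses 16 of the 24 libraries of the series, 4 in each of GH_Con, GH_EE, SI_Con and SI_EE, and was computed with all of them and with 15, leaving out SI_EE 1.

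Each library is bulk RNA-seq of the medial prefrontal cortex of mice whose genotype label is 5xFAD, a line in which mutant human transgenes, APP among them, are driven in neurons by Thy1 promoter elements, so all 4 groups carry the same genotype label. GH_Con mice carry the treatment label control, SI_Con mice the label SI, and both GH_EE and SI_EE the label EE, so the housing of the enriched groups is read from their titles. SI is taken as social isolation and EE as enriched environment, from the series title. The labels give no meaning for GH, and no age, sex or length of housing. They also do not state how many mice went into a library or that replicates are different mice, so the p-values here cover only the spread from sample to sample, which may be technical.

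Environmental enrichment adds novelty, exercise and objects to explore, and is known for activity-dependent transcription in cortical neurons. Social isolation in rodents is known for thinner or delayed prefrontal myelin and for altered stress hormone signalling. In amyloid-bearing cortex, microglia move from a homeostatic to a plaque-associated state marked by Trem2-dependent genes, and part of them express type I interferon response genes. These are background to the gene lists used, and no result below rests on them.

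Total counts of the 16 libraries ran from 34559842 to 39361685. SI_EE 1 held cerebellar transcripts: the cerebellar list averaged 8.37 log2 CPM (counts scaled to the size of the library) there and 1.84 to 3.18 in the other 15, while the list of cortical pyramidal markers averaged 5.35 against 6.46 to 7.04. Long genes read lower in GH_Con 2, SI_Con 2 and SI_Con 3, and in 1 library outside the contrast. By Xist and Y-linked reads, GH_Con held 3 female and 1 male library, GH_EE and SI_Con 2 and 2, and SI_EE 1 and 3. Results are given beside these features where they move with them, and their part in the results was not tested.

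No gene passed edgeR's test of the interaction. With all libraries, edgeR's quasi-likelihood test called 0 of 20354 genes (0%) at a Benjamini-Hochberg adjusted p under 0.05. Without SI_EE 1 it called 0 of 20718 (0%). The smallest adjusted p was 0.0717 with all libraries (the pseudogene Gm5514) and 0.398 without SI_EE 1. At an unadjusted p under 0.05 there were 1576 genes, 1051 positive (5.16%) and 525 negative (2.58%), and without SI_EE 1 there were 1322, 805 positive (3.89%) and 517 negative (2.5%). SI_EE 1 was the highest of the 16 libraries for 566 of the 1051 positive genes. limma-voom called 0 genes in both fits, with or without library weights. DESeq2 called 29 and 24, of which 16 were shared, and its calls with a mean of at least 1 CPM numbered 21 and 16. Without GH_EE 3, edgeR called 1 gene, Gm5514, in either fit.

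Enrichment on its own called few genes in either housing by edgeR. SI_EE against SI_Con gave 0 calls by edgeR with all libraries (0%), with 2563 genes at an unadjusted p under 0.05 and 174 calls by DESeq2. It gave 1 call without SI_EE 1 (0.00483%), Inhba, 91 without SI_EE 2, 3 without SI_Con 3 and 1 without SI_EE 3. GH_EE against GH_Con gave 1 call, Gm5514, in both fits (0.00491% and 0.00483%), and 26 by DESeq2 with all libraries. Across all genes, the enrichment effects in the 2 housings, which share no library, had a Pearson r of 0.017 with all libraries and 0.042 without SI_EE 1, and a Spearman rho of 0.070 and 0.153. Genes are not independent replicates, so these values describe the tables only. The 2 effects differed in sign for 46.0% and 41.2% of genes. The interaction itself correlated across genes at r = 0.863 between the fits with and without SI_EE 1, which share 15 of their libraries.

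**Figure D1:**
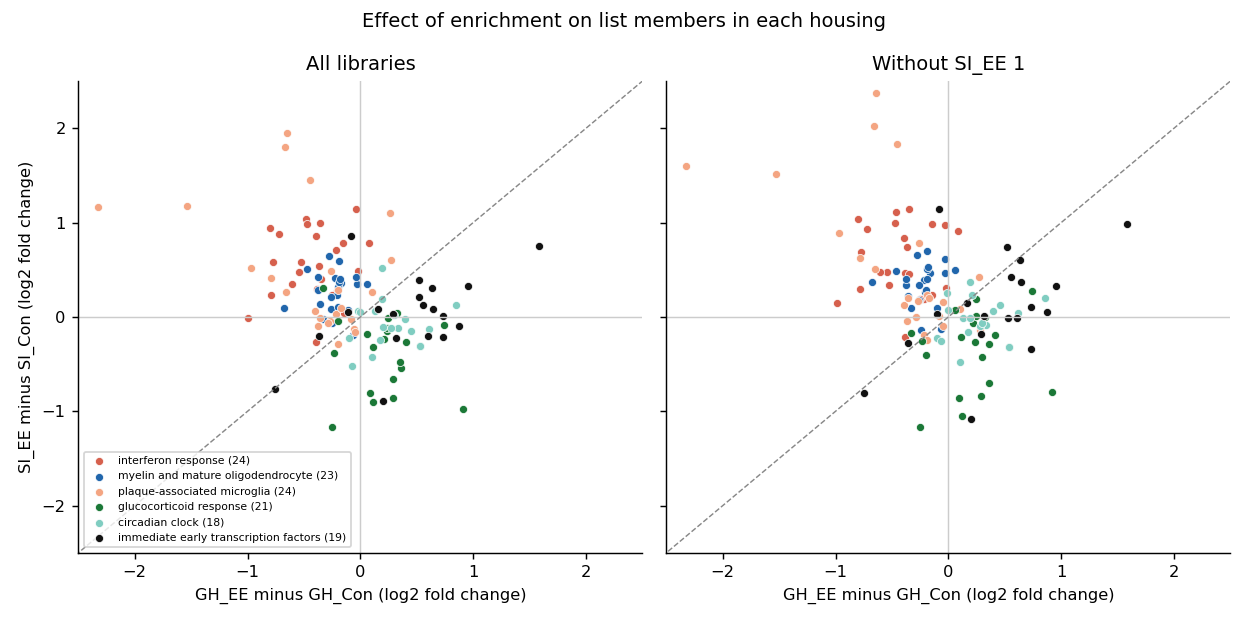
Log2 fold change of enrichment in GH mice (x axis) and in isolated mice (y axis) for the members of 6 gene lists, with all libraries (left) and without SI_EE 1 (right). Each point is a gene, and the dashed line marks equal effects: interferon and myelin genes lie mostly above it, glucocorticoid response and clock genes mostly below it.

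The lists below are described by how many members had a positive or negative interaction and by the list's median, beside the same over all genes, for which 51.6% were positive with a median of 0.01 (50.6% and a median of 0.0046 without SI_EE 1). No member of any list passed the threshold by edgeR. Of the list members described below, DESeq2 called Trf in both fits, and Plekhh1 and Inhba without SI_EE 1.

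Interferon response genes were the list with the largest positive median among those for pathways. These genes encode antiviral effectors (the Ifit, Oas and Gbp families) and the factors that induce them (Stat2, Irf7, Irf9). All 24 measured members had a positive interaction, with a median of 0.97, and without SI_EE 1 again 24 of 24, with a median of 1.05. The fold change of enrichment was positive for 22 members in isolated mice (median 0.56) and for 1 in GH mice (median −0.39). An unadjusted p under 0.05 was reached by 8 members, and by 10 without SI_EE 1.

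Ifit3, an interferon-induced antiviral protein with tetratricopeptide repeats (chromosome 19, 34583531 to 34588731, plus strand, GRCm38 as for all gene positions here), had the smallest p of the list in both fits. Its level was 17.9, 15.3, 13.7 and 13 CPM in GH_Con 1 to 4 and 7.59, 8.68, 15.3 and 11.4 in GH_EE. In isolated mice it was 12.6, 11.3, 5.27 and 8.39 CPM in SI_Con and 21.1, 9.89, 15.4 and 30.5 in SI_EE. SI_EE 2 lay within the range of SI_Con and the other 3 SI_EE libraries above it, while GH_EE 3 was the only GH_EE library within the range of GH_Con. The interaction was 1.51 (SE 0.50, adjusted p = 0.511 by edgeR), and 1.47 (SE 0.53, adjusted p = 0.696) without SI_EE 1. Ifit1, of the same family, was at 1.5 without SI_EE 1, and Ifit3b, a near-identical copy of Ifit3 between which the counting could have split reads, at 1.22. Trim30a, an interferon-induced ubiquitin ligase, was at 1.11.

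Promoters of the list were looked at for the interferon-stimulated response element, searched as GAAANNGAAA on both strands in the 250 bases before and 50 after each start in RefSeq (GRCm38.p6). Of the 24 members 17 had a promoter in that table, and 12 of them (70.6%) held a match, against 3.99% of the 27025 genes with a promoter. Stretches of 80 bases upstream of the start are shown, with the matches in capitals, for 3 of the 4 members with the smallest interaction p without SI_EE 1. The stretch of the fourth, Ifit3b, is letter for letter that of Ifit3.
Ifit3 (chr19:34583355-34583434, plus strand): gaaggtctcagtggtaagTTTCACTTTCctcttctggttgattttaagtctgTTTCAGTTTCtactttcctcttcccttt
Ifit1 (chr19:34640759-34640838, plus strand): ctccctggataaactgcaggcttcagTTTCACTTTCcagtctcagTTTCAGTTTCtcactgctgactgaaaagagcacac
Trim30a (chr7:104465194-104465273, minus strand): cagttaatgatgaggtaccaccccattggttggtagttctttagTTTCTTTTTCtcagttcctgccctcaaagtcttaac
A match describes these letters and is no sign that a factor bound there.

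At the level of libraries the interferon list overlapped between groups. Its mean was 2.61, 2.95, 2.18 and 2.04 log2 CPM in GH_Con and 1.69, 2.16, 2.54 and 1.77 in GH_EE. It was 2.22, 2.54, 1.36 and 1.57 in SI_Con and 2.46, 1.90, 2.5 and 3.14 in SI_EE. SI_Con 1 and 2, both female by the reads, lay within the range of SI_EE, and SI_Con 3 and 4, both male, below it. Within each group, every female library had a higher mean of this list than every male library. The part of sex in the interferon values was not tested. The interaction of this mean was 0.98 (SE 0.47) with all libraries. It was 1.0 among female libraries, of which SI_EE held 1, and 1.13 among male libraries, of which GH_Con held 1. Leaving out any 1 of the 16 libraries left 23 or 24 members positive and a median of 0.65 to 1.27.

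Trim34a, Plscr1 and Zc3hav1 stand outside the list and were named for their rank by p among positive interactions. Their direction was fixed by that choice, and they are placed here for their antiviral or interferon-induced roles. Trim34a, a tripartite motif antiviral protein with a near-identical copy, Trim34b, that could share its reads, was at 0.891, 1.14, 0.949 and 0.776 CPM in SI_Con and 3.48, 2.37, 3.10 and 5.0 in SI_EE, which did not overlap, beside 3.48, 2.13, 2.0 and 2.35 in GH_Con and 0.955, 2.39, 2.10 and 1.65 in GH_EE. Its interaction was 2.38 (SE 0.53, adjusted p = 0.392) and 2.38 without SI_EE 1 (0.452). Plscr1, an interferon-induced phospholipid scramblase, was low in all libraries. It read 2.34, 2.13, 1.14 and 2.20 CPM in GH_Con, 0.716, 1.08, 0.341 and 1.0 in GH_EE, 0.690, 0.924, 0.527 and 1.26 in SI_Con and 4.31, 1.33, 1.85 and 1.5 in SI_EE. Every GH_EE library lay below every GH_Con library, and every SI_EE library above every SI_Con library. The interaction was 2.71 (SE 0.56, adjusted p = 0.373), and 2.19 without SI_EE 1, the highest library (0.445). Zc3hav1, the zinc finger antiviral protein that binds viral RNA, was at 1.31 and 1.05, with 4.11, 4.81, 3.24 and 4.08 CPM in SI_Con and 10.9, 5.83, 5.42 and 6.70 in SI_EE, which did not overlap.

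**Figure D2:**
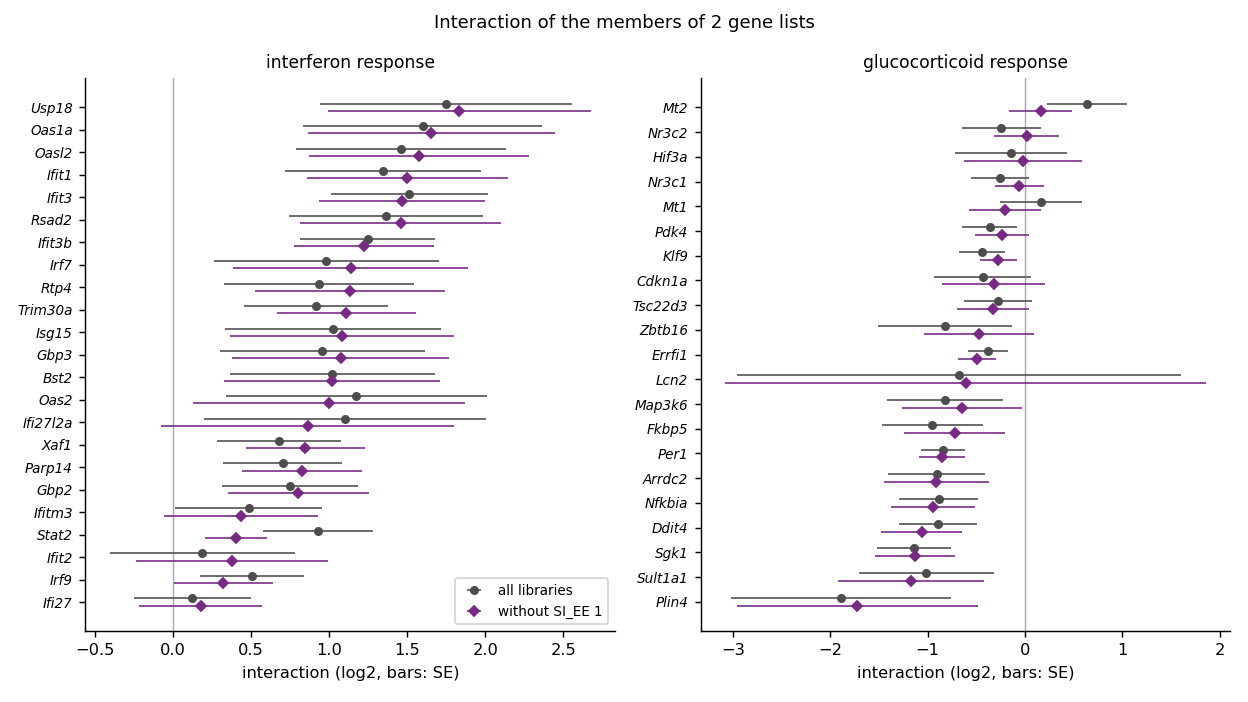
Interaction of measured members of the interferon response list (23 of 24 drawn) and the glucocorticoid response list (21 genes), in log2 with bars of 1 SE, with all libraries (grey circles) and without SI_EE 1 (purple diamonds). All interferon members drawn lie right of 0, and 19 of 21 glucocorticoid response members left of 0 in each fit.

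Microglial lists had positive medians and a wide spread between libraries within each group. Of the plaque-associated genes, 21 of 24 were positive with a median of 0.41 (20 and 0.43 without SI_EE 1, and 18 and 0.18 without GH_Con 1). Only 1 had an unadjusted p under 0.05, and 0 without SI_EE 1. Clec7a, a lectin receptor of plaque-associated microglia, ran from 0.207 to 9.08 CPM within GH_Con and from 0.436 to 4.67 within SI_EE. Trem2, the lipid receptor needed for this state, had an interaction of 0.92 (SE 0.63, adjusted p = 0.775), and Cst7, a cystatin that marks it, of 1.90 (SE 1.52). The list's mean was 4.36, 3.86, 3.21 and 2.58 log2 CPM in GH_Con, 2.58, 3.80, 3.69 and 2.57 in GH_EE, 2.63, 3.50, 2.64 and 2.43 in SI_Con and 2.60, 2.46, 3.38 and 3.93 in SI_EE, and all 4 groups overlapped. This mean moved with the sex read from the counts, which is uneven over the groups. Male libraries lay at 2.43 to 2.64, apart from SI_EE 3 at 3.38. Female libraries lay at 3.21 to 4.36, apart from SI_Con 1 at 2.63. The interaction of the list's mean was 0.94 among female libraries, of which SI_EE held 1, and 0.28 among male libraries, of which GH_Con held 1. The part of sex in the interaction was not tested. The human APP entry ran from 337 CPM in SI_EE 1 to 3836 in GH_EE 3, with an interaction of 0.44 (SE 0.66) and 0.80 (SE 0.48) without SI_EE 1. It also moved with sex: in CPM without TMM factors it was at most 1851 in male libraries, apart from 3212 in SI_EE 3. In female libraries it was at least 2106.

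Homeostatic microglial genes were positive for 11 of 14 (median 0.14) and for 12 without SI_EE 1 (median 0.36), but for 6 without SI_EE 4 and 7 without GH_EE 4 or without SI_Con 3. With 1 library left out this median ran from −0.04 to 0.36, so its sign rests on single libraries. P2ry12, the purinergic receptor of resting microglia, was at −0.41 (SE 0.41). Complement genes were positive for 10 of 13 (median 0.27), and for 11 without SI_EE 1 (median 0.42). With 1 library left out the complement median ran from 0.08 (without SI_EE 4) to 0.44 (without SI_Con 2), and it was 0.08 without GH_Con 1, with 8 positive, 0.13 without GH_EE 1 and 0.15 without SI_Con 4. C4b, a complement component that tags surfaces for uptake by microglia, was at 36.4 ± 18.0 CPM in GH_Con, 27.3 ± 10.6 in GH_EE, 18.8 ± 5.58 in SI_Con and 35.4 ± 19.7 in SI_EE (SD, n = 4). Its interaction was 1.33 (SE 0.61, adjusted p = 0.624).

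Myelin and mature oligodendrocyte genes were positive for 22 of 23 members, with a median of 0.50, and for 22 without SI_EE 1, with a median of 0.60. Enrichment had a positive fold change for 20 of them in isolated mice (median 0.32) and for 1 in GH mice (median −0.21). Of these genes 11 had an unadjusted p under 0.05, and 14 without SI_EE 1. The list's mean was 6.50, 6.66, 6.53 and 6.87 log2 CPM in GH_Con, 6.36, 6.63, 6.53 and 6.05 in GH_EE, 6.31, 6.3, 5.87 and 6.16 in SI_Con and 6.18, 6.26, 6.62 and 6.69 in SI_EE. SI_EE 3 and 4 lay above all SI_Con libraries and SI_EE 1 and 2 within their range, while GH_EE 1 and 4 lay below all GH_Con libraries. Thalamus and habenula genes, given with the other admixtures below, were also higher in SI_EE 3 and 4 than in SI_EE 2. They were highest in SI_EE 1, and their part in the myelin values was not tested. Leaving out any 1 library kept 21 or 22 positive, with a median of 0.38 to 0.60. Without the 4 libraries in which long genes read lower the median was 0.39. The list's mean had an interaction of 0.38 among female libraries, of which SI_EE held 1. It was 1.0 among male libraries, of which GH_Con held 1.

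Trf, the iron carrier transferrin that oligodendrocytes make (chromosome 9, 103204001 to 103230444, minus strand), was the myelin-list member with the smallest p. It read 371, 417, 347 and 423 CPM in GH_Con and 308, 376, 345 and 251 in GH_EE. In isolated mice it read 254, 267, 189.7 and 237 in SI_Con and 369, 316, 391 and 407 in SI_EE. The 2 isolated groups did not overlap, with SI_EE higher, and the 2 GH groups did, with GH_EE lower on average. SI_Con against GH_Con was at −0.72 (SE 0.15, adjusted p = 0.353 by edgeR), and SI_EE against GH_EE at 0.21 (SE 0.15, adjusted p = 0.696). The interaction was 0.93 (SE 0.21, adjusted p = 0.392) and 0.94 (SE 0.21, adjusted p = 0.445) without SI_EE 1, and the value of DESeq2 was past its threshold in both fits (0.0194 and 0.0315).

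Plekhh1, an oligodendrocyte protein with pleckstrin homology domains, read 43.2, 38, 28.1 and 43.9 CPM in SI_Con and 44.9, 52, 65.1 and 68.2 in SI_EE, again without overlap, beside 57.0, 54.2, 60.8 and 76.1 in GH_Con and 52.7, 58.2, 60.3 and 45.7 in GH_EE. Its interaction was 0.78 (SE 0.21) and 0.89 (SE 0.20, adjusted p = 0.445 by edgeR and 0.0423 by DESeq2) without SI_EE 1. Mag, the myelin-associated glycoprotein of the inner myelin wrap, had the interaction 0.66 (SE 0.22) and 0.71 without SI_EE 1. It was at 193 ± 17.7 CPM in GH_Con, 149 ± 29.5 in GH_EE, 118 ± 14.8 in SI_Con and 144 ± 24.5 in SI_EE (SD, n = 4). Fa2h, which makes the hydroxylated fatty acids of myelin lipids, was at 0.59 and 0.71. Mbp, the main cytoplasmic myelin protein, was at 0.31 (SE 0.23). Phldb1, a cytoskeletal linker, stands outside the list. It was named for its rank by p among positive interactions, so its direction was fixed by that choice. It read 98.2, 100.3, 94.3 and 120.2 CPM in GH_Con and 58.3, 95.4, 69.8 and 72.4 in GH_EE. In isolated mice it read 77.5, 54.9, 61.7 and 69.6 in SI_Con and 105, 77.6, 106 and 122 in SI_EE. The interaction was 1.12 (SE 0.23, adjusted p = 0.373 by edgeR). In bulk tissue, fewer cells of a type and less RNA per cell cannot be told apart.

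Lists near the oligodendrocyte lineage had smaller values. Precursor and newly forming oligodendrocyte genes were positive for 9 of 15 (median 0.17; 12 and 0.31 without SI_EE 1). With 1 library left out this median ran from −0.0083 (without SI_EE 4) to 0.31 (without SI_EE 1). Enpp6, an early marker of newly forming cells, was at 0.77 (SE 0.32) without SI_EE 1. Cholesterol synthesis and transport genes were positive for 19 of 21 (median 0.24), 20 without SI_EE 1 and 12 without SI_EE 3, where the median was 0.09. It was 0.14 without GH_EE 1 and 0.15 without GH_EE 4 or SI_Con 3. Their median effect of enrichment was −0.17 in GH and 0.04 in isolated mice. Msmo1, a sterol oxidase of the pathway, was at 0.58 (SE 0.15, adjusted p = 0.628) without SI_EE 1 and 0.40 with it.

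Astrocyte markers were positive for 13 of 15 (median 0.30; 12 and 0.23 without SI_EE 1). Aqp4, the astrocyte water channel, was at 239 CPM in SI_EE 1 and 63.7 to 127 in the other SI_EE libraries, and its interaction was 1.16 with that library and 0.73 without. Sox9, an astrocyte transcription factor, was at 1.27 (SE 0.35, adjusted p = 0.511) and 1.18. Gfap, the filament of reactive astrocytes, was at 477, 343, 177 and 170.2 CPM in GH_Con and 145, 88.5, 224 and 371 in SI_EE, a wide spread within both groups, and its interaction was 1.39 (SE 0.63).

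**Figure D3:**
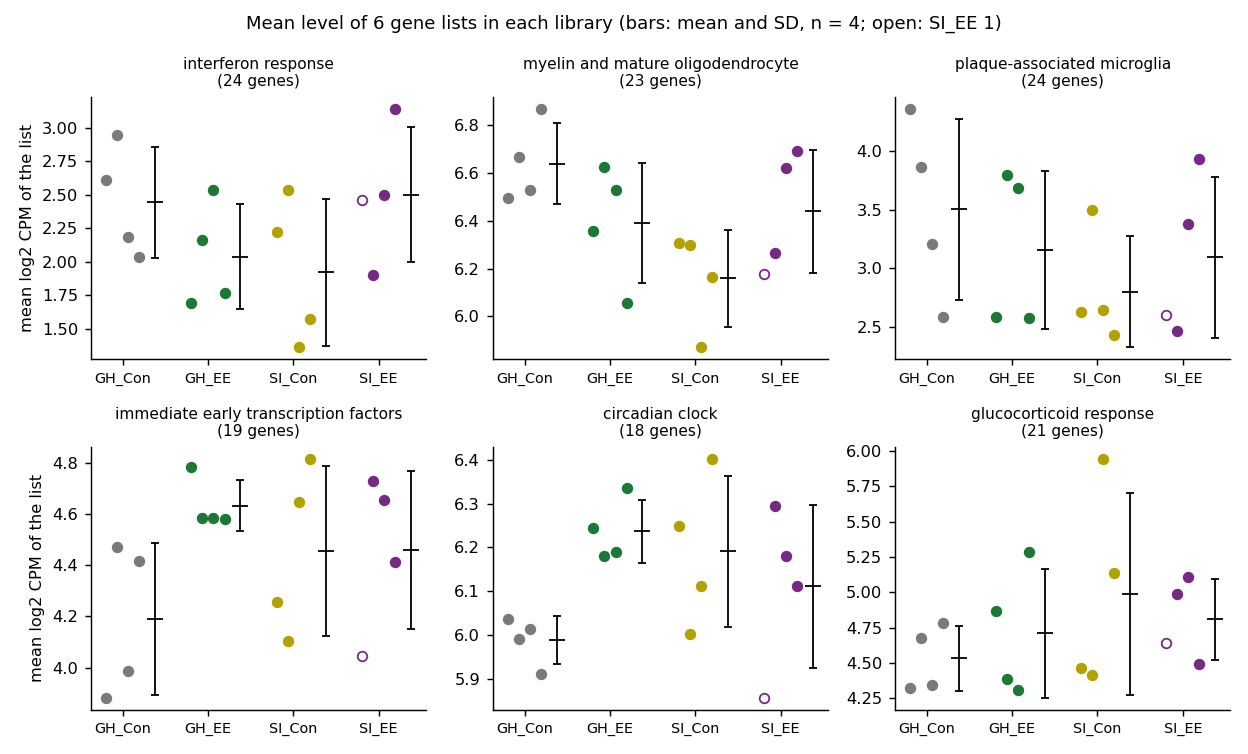
Mean log2 CPM of 6 gene lists in each of the 16 libraries, by group, with the group mean and SD (n = 4) as bars and SI_EE 1 as the open circle. SI_Con and SI_EE overlap in all 6 panels; all 4 GH_EE libraries lie above all 4 GH_Con libraries for the circadian clock and immediate early panels.

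Lists of genes that neuronal activity induces had negative medians, with the larger median effect of enrichment in GH mice. Immediate early transcription factors were negative for 16 of 19 (median −0.43; 15 and −0.31 without SI_EE 1). The median effect of enrichment was 0.52 in GH mice and 0.06 in isolated mice, where members ran from −0.89 (Maff, a small Maf factor) to 0.86 (Npas4). The list's mean was 3.88, 4.47, 3.99 and 4.42 log2 CPM in GH_Con and 4.78, 4.58, 4.59 and 4.58 in GH_EE, without overlap. It was 4.26, 4.10, 4.65 and 4.81 in SI_Con and 4.05, 4.73, 4.65 and 4.41 in SI_EE, with overlap. The interaction of this mean was −0.44 (SE 0.28). It was −0.24 among female libraries, of which SI_EE held 1, and −0.52 among male libraries, of which GH_Con held 1.

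Arc, which regulates synaptic glutamate receptors, showed the pattern at the level of libraries. It read 91.0, 146, 109 and 170.2 CPM in GH_Con and 401, 311, 221 and 253 in GH_EE, and 108, 135, 253 and 321 in SI_Con and 85.0, 366, 286 and 165 in SI_EE. Only the GH groups did not overlap. Its interaction was −1.06 (SE 0.57, adjusted p = 0.687), and −0.78 (SE 0.53) without SI_EE 1. Nr4a1, a nuclear receptor induced by activity, was at −0.97 (SE 0.36), Junb, an AP-1 subunit, at −0.81, and Fos, its partner, at −0.62 (SE 0.46). Npas4, an activity-induced factor of inhibitory synapse formation, went the other way at 0.95 (SE 0.58). Bdnf, the activity-dependent neurotrophin, was at 0.24 (SE 0.27).

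Activity-regulated effector genes had median effects of 0.34 in GH and 0.09 in isolated mice, and were negative for 14 of 21 (median −0.35; 12 and −0.44 without SI_EE 1). An unadjusted p under 0.05 was reached by 4 negative and 2 positive members, and by 5 and 1 without SI_EE 1. Their mean was 4.79, 4.96, 4.91 and 4.92 log2 CPM in GH_Con and 5.37, 5.28, 5.27 and 5.08 in GH_EE, without overlap. It was 4.95, 4.87, 5.31 and 5.39 in SI_Con and 4.67, 5.31, 5.36 and 5.12 in SI_EE, with overlap. The interaction of this mean was −0.37 (SE 0.21), and smaller without SI_EE 1, at −0.22 (SE 0.16), unlike the median. Sik1, a salt-inducible kinase that restrains CREB-dependent transcription, read 11.4, 14.9, 10.4 and 8.99 CPM in GH_Con and 19.98, 17.5, 23.4 and 20.6 in GH_EE, without overlap. It read 12.2, 7.53, 20.9 and 23.7 in SI_Con and 12.9, 11.1, 11.7 and 11.4 in SI_EE, a wide range in SI_Con around a narrow one in SI_EE. The interaction was −1.28 (SE 0.35, adjusted p = 0.511) and −1.32 (SE 0.37) without SI_EE 1. Plk2, an activity-induced kinase of synaptic scaling, was at −0.82 and −0.55.

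Inhba, which encodes the activity-induced activin beta A subunit (chromosome 13, 16011851 to 16031621, plus strand), was an effector with a positive value. It read 22.4, 21.3, 25.2 and 23.8 CPM in GH_Con, 21.4, 19.3, 23.9 and 25.7 in GH_EE and 14.9, 17.3, 14.7 and 20.4 in SI_Con. In SI_EE it read 4.34, 37.3, 34.6 and 35.0. SI_EE 2 to 4 lay above every other library and SI_EE 1, the library with cerebellar transcripts, below every other one. Without SI_EE 1, SI_EE exceeded SI_Con by 1.09 (SE 0.16, adjusted p = 0.0230 by edgeR), and the interaction was 1.13 (SE 0.22, adjusted p = 0.445 by edgeR and 0.0105 by DESeq2). With all libraries these were 0.73 and 0.77 (SE 0.51, adjusted p = 0.769).

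**Figure D4:**
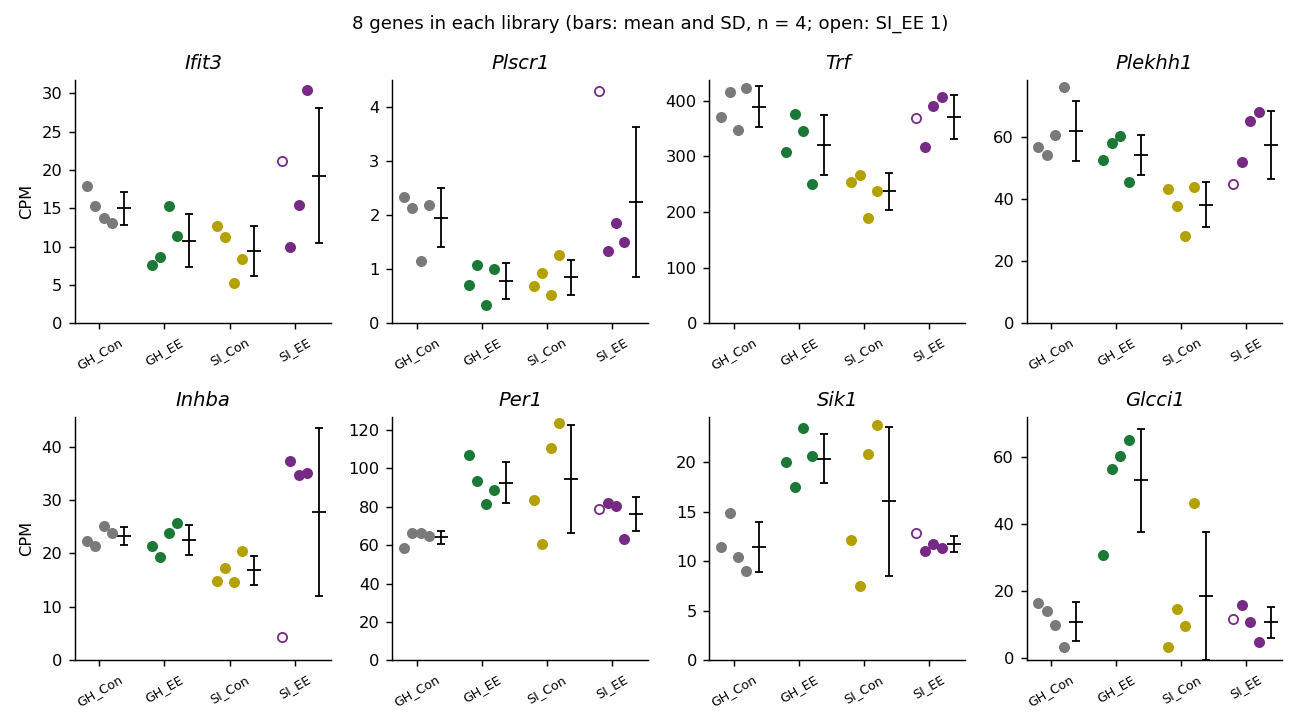
CPM of 8 genes in each of the 16 libraries, by group, with the group mean and SD (n = 4) as bars and SI_EE 1 as the open circle. Trf and Plekhh1 separate SI_EE from SI_Con, Sik1, Per1 and Glcci1 separate GH_EE from GH_Con, and Inhba is high in SI_EE 2 to 4 and low in SI_EE 1.

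Circadian clock genes were negative for 14 of 18, with a median of −0.40 (14 and −0.33 without SI_EE 1). The clock is a feedback loop in which Clock and Arntl drive the Per and Cry repressors through E-boxes. The list's mean was 6.04, 5.99, 6.01 and 5.91 log2 CPM in GH_Con and 6.24, 6.18, 6.19 and 6.34 in GH_EE, without overlap. It was 6.25, 6.00, 6.11 and 6.40 in SI_Con and 5.86, 6.29, 6.18 and 6.11 in SI_EE. Its interaction was −0.33 (SE 0.13), and −0.24 (SE 0.11) without SI_EE 1. It was −0.18 among female libraries, of which SI_EE held 1, and −0.53 among male libraries, of which GH_Con held 1. Both arms of the loop held negative values: Arntl, an activator, was at −0.45 (SE 0.20), and Per2 and Cry2, repressors, at −0.72 and −0.42. Cry1, another repressor, was at 0.00. No label gives the time of day at which tissue was taken.

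Per1, a repressor that is also induced by activity and by glucocorticoids (chromosome 11, 69095217 to 69109960, plus strand), belongs to 3 of the lists. It read 58.7, 66.3, 66.3 and 64.5 CPM in GH_Con and 107, 93.4, 81.3 and 88.6 in GH_EE, without overlap, and 83.4, 60.3, 110.4 and 123 in SI_Con and 78.9, 81.8, 80.5 and 63.4 in SI_EE. The interaction was −0.84 (SE 0.22, adjusted p = 0.511) and −0.85 (SE 0.23, adjusted p = 0.628) without SI_EE 1. An E-box, CACGTG, lies in 1 of the promoter windows of Per1, and the stretch is shown because Per1 has the smallest p of the clock list. Of the 18 clock genes 16 had a promoter, and 5 of them (31.3%) held an E-box, against 8.09% of all genes. An E-box was also held by 6 of 15 activity-regulated effectors with a promoter, Per1 included, by 3 of 15 immediate early factors and by 3 of 19 glucocorticoid response genes.
Per1 (chr11:69098746-69098825, plus strand): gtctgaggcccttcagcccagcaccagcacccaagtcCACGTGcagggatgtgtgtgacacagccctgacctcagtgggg

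Glucocorticoid response genes were negative for 19 of 21 in both fits, with a median of −0.68 and −0.50 without SI_EE 1. An unadjusted p under 0.05 was reached by 4 and 5 of them. The median of −0.68 is the value of 1 member with an SE of 2.28, and the members on either side were at −0.82 and −0.44. The interaction of the list's mean was smaller than its SE, at −0.36 (SE 0.46), and −0.31 (SE 0.48) without SI_EE 1. Sgk1, a kinase induced by corticosteroids, read 79.0, 127, 81.2 and 75.5 CPM in GH_Con and 129.7, 92.3, 86.6 and 133 in GH_EE. It read 102, 73.2, 226 and 191 in SI_Con and 80.4, 106, 80.8 and 60.0 in SI_EE, where the 2 highest of the 16 values belong to SI_Con 3 and SI_Con 4. The interaction was −1.14 (SE 0.38, adjusted p = 0.511). Ddit4, a stress-induced inhibitor of mTOR signalling, had the same 2 libraries on top (89.3 and 56.2 CPM, against 25.5 to 45.3 in the other 14) and an interaction of −0.90 (SE 0.40).

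The glucocorticoid list's value depended on SI_Con 3 in particular. Its mean was 4.47, 4.41, 5.94 and 5.14 log2 CPM in SI_Con 1 to 4, and 4.30 to 5.28 in the GH libraries. Leaving out 1 library at a time gave medians from −1.0 to −0.24, the latter without SI_Con 3, where 16 of 21 members were negative. It was −0.43 without GH_Con 1 and −0.42 without GH_EE 4. The interaction of the list's mean was 0.16 among female libraries, of which SI_EE held 1. It was −0.92 among male libraries, of which GH_Con held 1 (SI_Con 3 and SI_Con 4 are male). With sex as a covariate the median was −0.43, with 18 of 21 negative. Heat shock and unfolded protein genes had positive effects of enrichment in both housings (median 0.25 in GH and 0.18 in isolated mice) and a median interaction of −0.13.

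Values of energy and translation genes depended on the libraries in which long genes read lower. Nuclear oxidative phosphorylation genes were negative for 67 of 73 (median −0.21) and 72 without SI_EE 1 (median −0.30). Without the 4 libraries with low long genes, 39 of 73 were negative and the median was −0.009. It was −0.09 without SI_Con 3 alone. Cytosolic ribosomal protein genes were negative for 64 of 77 with all libraries, for 13 without those 4 (median 0.13) and for 24 without SI_Con 3 alone. Mitochondrially encoded genes had negative fold changes of enrichment in both housings (13 and 13 of 13, median −0.23 and −0.25), with a median interaction of −0.03.

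**Figure D5:**
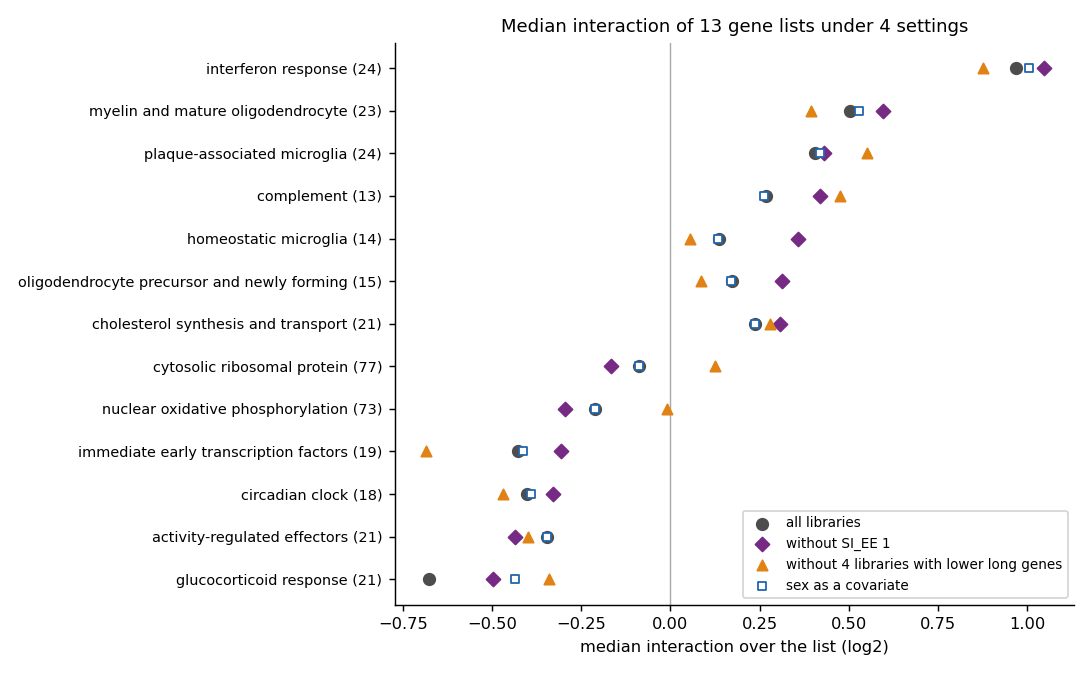
Median interaction (log2) of 13 gene lists, with the number of measured members, under 4 settings: all libraries, without SI_EE 1, without the 4 libraries in which long genes read lower, and with sex as a covariate. Interferon, myelin and plaque-associated genes stay above 0 and activity, clock and glucocorticoid genes below 0 in all 4, while ribosomal genes cross 0.

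Several lists cover neuronal transmission. Glutamate receptor and postsynaptic scaffold genes were positive for 13 of 25 (median 0.01; 0.09 without SI_EE 1), presynaptic release genes for 3 of 18 (−0.18; −0.05), and interneuron genes for 5 of 20 (−0.25; −0.10). Monoamine and acetylcholine receptor genes were positive for 6 of 23 (−0.30; −0.12). Social and stress neuropeptide genes were positive for 7 of 18 (−0.28; −0.02). Amyloid processing genes were positive for 11 of 19 (median 0.05), with mouse App at −0.18 (SE 0.25) and 0.01 without SI_EE 1, and Thy1 at 0.14 (SE 0.42). Perineuronal net genes were positive for 6 of 12 (median −0.04) and for 9 without SI_EE 1 (median 0.07). Acan, the proteoglycan core of these nets and 1 of the negative members, read 4.16, 2.58, 6.3 and 5.09 CPM in GH_Con and 7.93, 7.80, 8.29 and 8.58 in GH_EE, without overlap, and 8.10, 4.04, 7.01 and 7.24 in SI_Con and 3.96, 6.89, 5.53 and 6.89 in SI_EE. Its interaction was −1.03 (SE 0.34, adjusted p = 0.511).

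Genes in which both enriched groups parted from their controls in opposite directions, with no overlap in either housing, were few. With all libraries, SI_EE lay above SI_Con and GH_EE below GH_Con for 11 genes (0.054%), and the reverse held for 5 (0.0246%). Without SI_EE 1 these counts were 21 (0.103%) and 9 (0.0442%), but a lack of overlap is easier to meet with fewer libraries. Besides Plscr1, the first kind included Acsf2, a mitochondrial acyl-CoA synthetase, with an interaction of 0.63, and Pomc, the precursor of ACTH and beta-endorphin. Pomc read 1.47, 1.22, 1.12 and 1.09 CPM in GH_Con, 0.875, 0.721, 0.341 and 0.413 in GH_EE, 0.230, 0.739, 0.949 and 0.517 in SI_Con and 3.73, 0.953, 1.98 and 1.28 in SI_EE, with an interaction of 2.75 (SE 0.63, adjusted p = 0.460). Trdmt1, a tRNA methyltransferase of this kind, read 7.56, 6.27, 6.12 and 5.81 CPM in GH_Con, 3.77, 4.58, 4.91 and 4.60 in GH_EE, 5.12, 5.10, 3.82 and 3.91 in SI_Con and 7.89, 5.28, 5.93 and 5.90 in SI_EE, with an interaction of 1.01 (SE 0.22, adjusted p = 0.392). The second kind included Ube2z, a ubiquitin-conjugating enzyme, at −0.22.

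Among the remaining genes named by rank, Vasn, a membrane protein that binds TGF-beta, had the negative interaction with the smallest p after Gm5514 with all libraries. It read 11.4, 11.6, 10.6 and 12.6 CPM in GH_Con, 16, 15.7, 15.2 and 12.3 in GH_EE, 15.9, 14.8, 17.7 and 22.4 in SI_Con and 8.17, 13.7, 10.6 and 9.62 in SI_EE. SI_EE lay below SI_Con without overlap. The interaction was −1.11 (SE 0.23, adjusted p = 0.373). Kcnab3, a potassium channel beta subunit, was 112 ± 12.6 CPM in GH_Con and 153 ± 10.7 in GH_EE (SD, n = 4), without overlap, and its interaction was −0.94 and −0.73 without SI_EE 1 (SE 0.24 and 0.16). Mboat2, a membrane-bound acyltransferase, was high in 3 of 4 SI_Con libraries: it read 55.2, 50.9, 23.2 and 55.3 CPM there and 15.4 to 29.3 in the other 3 groups. Its interaction was −1.08 (SE 0.30, adjusted p = 0.511). It passed, with Tmem132d, only without SI_EE 1 and the 4 libraries with low long genes. That setting kept only SI_Con 1 and SI_Con 4 of the SI_Con group, and left out SI_Con 3, the low one for Mboat2. Gdap1l1, a paralogue of the mitochondrial fission factor Gdap1, differed little in size but tightly between libraries: it read 62.0, 70.7, 68.5 and 63.0 CPM in SI_Con and 54.8, 54.2, 53.7 and 49.6 in SI_EE, without overlap, and its interaction was −0.39 (SE 0.10). Apold1, an immediate early gene of endothelial cells, was at 10.4, 5.07, 22.0 and 22.8 CPM in SI_Con and 6.66, 4.71, 6.77 and 4.65 in SI_EE, with an interaction of −2.12 (SE 0.60).

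Some of the largest values belonged to single genes that varied in steps between libraries. Glcci1, a glucocorticoid-induced transcript, read 16.5, 14.1, 9.85 and 3.33 CPM in GH_Con, 30.8, 56.4, 60.3 and 65.1 in GH_EE, 3.28, 14.6, 9.75 and 46.2 in SI_Con and 11.8, 15.8, 10.7 and 4.75 in SI_EE. All GH_EE libraries lay above all GH_Con libraries, and SI_Con 4 was the only isolated library in the GH_EE range. Its interaction was −3.06 (SE 0.88, adjusted p = 0.511). Gm5514, a processed pseudogene whose reads could belong to its parent gene, was at 25.9, 27.9, 0.965 and 26.5 CPM in GH_EE and at 1.14 or less in the other 12 libraries. The Gm5514 interaction was −4.87 (SE 0.79, adjusted p = 0.0717), and −5.28 and past the threshold without GH_EE 3, where it was low.

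Markers of blood in the tissue, haemoglobin transcripts among them, were the list with the largest median interaction, at 4.73, or 3.06 without GH_Con 4. Of its 7 members 5 were positive, each with an unadjusted p under 0.05. The other 2 were negative in both fits, the lowest at −0.27 with all libraries. Single members of the cerebellar list reached higher values with all libraries, up to 12.7. Hbb-bs, a beta globin whose reads could be split with its near-identical copy Hbb-bt, had an interaction of 4.73 (SE 1.44). It read 9.84, 8.59, 1.29 and 62.7 CPM in GH_Con, 3.82, 0.0257, 2.30 and 4.42 in GH_EE, 1.01, 3.38, 1.5 and 3.68 in SI_Con and 10.3, 14.5, 7.07 and 0.629 in SI_EE. GH_Con 4 was the highest and GH_EE 2 the lowest library. Choroid plexus genes averaged 3.71 log2 CPM in SI_Con 4 and 3.02 in SI_EE 3, against −1.02 to 0.92 in the other 14. Striatal genes averaged 2.92 in SI_EE 1 and 5.04 to 6.36 elsewhere. They were positive for 12 of 17 (median 0.06) and for 15 without SI_EE 1 (median 0.45). Their mean was 5.04, 5.09, 5.52 and 5.74 log2 CPM in SI_Con and 5.98, 5.67 and 6.10 in SI_EE 2 to 4. It averaged 5.88 in GH_Con and 5.91 in GH_EE. Meningeal genes were positive for 15 of 17 (median 0.53) and for 12 without SI_EE 1 (median 0.23). Thalamus and habenula genes were positive for 11 of 13 (median 0.57) and for 9 without SI_EE 1 (median 0.23). Their mean was 3.53, 1.43, 2.42 and 2.895 log2 CPM in SI_EE and 1.07, 2.45, 1.22 and 1.84 in SI_Con. It averaged 1.48 in GH_Con and 1.57 in GH_EE. SI_EE 3 and 4 also had the higher myelin means of SI_EE, while SI_EE 1 and SI_Con 2 did not stand out for myelin. The part of these admixtures in the results above was not tested.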

How the data were processed

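The authors deposited a table of raw read counts per gene for 24 libraries, and its values are whole-number counts. The build mm10 is named in the submitters' processing notes. No aligner, counter or strand setting is given in the sources used here. Groups were read from the sample titles. Entries without a symbol held 0.421% of reads.

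The members and gene lists were chosen with earlier results of these data known. Counts were fitted with edgeR 4.0.16 (R 4.3.3) in 1 model of 6 groups of 4, with TMM factors, filterByExpr and the quasi-likelihood test, and p-values were adjusted by Benjamini-Hochberg over all genes tested. The fit was repeated on 23 libraries, without SI_EE 1. SE is the absolute log2 fold change over the square root of F. CPM use TMM factors, and log2 CPM a prior count of 2. The procedure was tested on simulated data.

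Named genes were, with a mean of at least 1 CPM, the 10 of smallest p in each direction and fit, the 4 of smallest p in each list without SI_EE 1, and a short fixed set. Tmem132d, Acsf2, Ube2z, Maff, Per2, Cry1 and Cry2 were named after their values were seen. Alternatives were DESeq2 1.42.0, limma 3.58.1 voom, other factors, no filter, 4 groups only, a replicate block, a sex covariate and left-out libraries. The values within the libraries of 1 sex were added after seeing the data. Some items are not reported here.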

Additional observations from a re-analysis of the deposited data

Results flagged for a closer look

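Groups of 4 were examined for a single library far from the other 3, by Dixon's test, in 136 groups of values, and 8 were found, where chance gives about 1 in 20. Within GH_EE, GH_EE 1 stood above the other 3 for immediate early transcription factors, at a mean of 4.78 log2 CPM. Within GH_Con, GH_Con 2 stood above the others for ribosomal protein genes, at 7.14 log2 CPM, and for Sgk1, at 127 CPM. GH_Con 3 was the low library for Plscr1, at 1.14 CPM. SI_EE 4 was the low library for Per1, at 63.4 CPM, and SI_EE 1 for Inhba, at 4.34 CPM. SI_Con 3 was the low library for Mboat2, at 23.2 CPM, and GH_EE 3 for Gm5514, at 0.965 CPM.

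Every library of the enriched groups lay on opposite sides of its controls in the 2 housings for Plscr1 and Pomc. Their interactions were 2.71 and 2.75, and edgeR's adjusted p for these differences were 0.373 and 0.460.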

How the results depend on the processing

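No interaction of the 20 genes recomputed under every alternative changed sign. Of the medians of the 14 lists likewise recomputed, 5 values did: precursor genes without SI_EE 4 (−0.0083), homeostatic microglia without SI_Con 3 (−0.0086) or SI_EE 4 (−0.04), and ribosomal genes without SI_Con 3 (0.03) or without the 4 libraries with low long genes (0.13). Of the summary results (counts of calls and of list members), 318 values under an alternative stayed within 1.5 times the reported one and 20 did not. DESeq2 gave 29 interaction calls (24 without SI_EE 1), 174 calls for enrichment in isolated mice and 26 in GH mice, where limma-voom gave 0. Leaving out 1 library at a time, edgeR's interaction calls ran from 0 to 1 in both fits (the 1 was Gm5514 without GH_EE 3, a Gm5514 interaction of −5.28), and calls for enrichment in isolated mice from 0 to 91 (91 without SI_EE 2, 3 without SI_Con 3, 1 without SI_EE 1 or SI_EE 3). Without SI_EE 1 and the 4 libraries with low long genes edgeR gave 2 interaction calls. Separated genes went from 16 to 30 without SI_EE 1, where fewer libraries also make a lack of overlap easier to meet. Positive cholesterol genes ran from 12 (without SI_EE 3) to 20, and positive homeostatic microglial genes from 6 (without SI_EE 4; 7 without GH_EE 4 or SI_Con 3) to 12. Without the 4 libraries with low long genes, negative oxidative phosphorylation genes were 39 and negative ribosomal genes 13. Negative ribosomal genes ran from 24 (without SI_Con 3) to 73 with 1 library left out. The cause of these shifts was not tested. Of the single-gene values, 21 passed the threshold under an alternative alone: under DESeq2, without GH_EE 3 (Gm5514) or without the low long-gene libraries (Mboat2).

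Same-numbered libraries did not deviate together (24 pairs, correlations −0.160 to 0.139, 2 over 0.1), and 2 of 16 libraries correlated best with their own number. With the replicate number as a block edgeR made 0 interaction calls, and it changed no other call.

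With 4 libraries a group, the median SE of the interaction was 0.343 on the log2 scale. Interactions of several times their SE could still go uncalled after adjustment over all genes. Trf, at 0.93 (SE 0.21), was not called by edgeR. Counting error bears most on low genes such as Plscr1 and Pomc.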
